A study of Mus musculus with 12 samples.

Results

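The genes of bone morphogenetic protein (BMP) and transforming growth factor beta (TGF-beta) signalling were examined in primary cultures of mouse cerebral cortex with and without triiodothyronine (T3), the active thyroid hormone. The 36 members were taken from a written list of ligands, receptors, Smad proteins, antagonists and target genes, by gene symbol, and all 36 are among the 14801 genes of the deposited table. The cells came from the cortices of 6 fetuses on gestational day 17.5, numbered as mouse 1 to 6, and all libraries are titled wild type. Each fetus supplied 1 culture without T3 and 1 with 10 nM T3, which makes 12 RNA sequencing libraries in 6 pairs. All cultures were plated in medium with horse serum and laminin, were kept for 9 days in medium with B27, and then went without B27 for 24 h. T3 was added to 1 culture of each pair for the last 24 h, and none was added to the other. The series asked which genes the hormone controls in these cells, directly or indirectly. Such cultures mix neurons and glia, and in bulk RNA a change in the number of cells of a type and a change in RNA per cell cannot be told apart.

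Ligands of this family are secreted as dimers and bind pairs of type I and type II receptor kinases. BMP receptors phosphorylate Smad1, Smad5 and Smad9, TGF-beta and activin receptors phosphorylate Smad2 and Smad3, and both branches join Smad4 to enter the nucleus. Secreted antagonists such as noggin hold BMPs away from the receptors, latent TGF-beta binding proteins store TGF-beta in the matrix, and Smad6 and Smad7 damp the signal inside the cell. In the developing cortex BMP signalling is known for promoting the astrocyte fate, and the Id genes, which encode inhibitors of DNA binding, are its best known direct targets.

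The promoters of Id2, Id3 and Id4 are shown because these genes are known targets of the pathway, and because Id2 on one side and Id3 and Id4 on the other differed in how far they varied between mice. Each sequence runs from 250 bases before to 50 bases after a transcript start in RefSeq on GRCm38.p6, 300 bases in all. These starts differ from the outermost gene starts of the annotation used for the other coordinates. The windows are chr12:25096043-25096342 on the minus strand for Id2, chr4:136143572-136143871 on the plus strand for Id3 and chr13:48260866-48261165 on the plus strand for Id4. Capitals mark GGCGCC, a GC-rich motif bound by Smad1 and Smad5, and CAGAC or its reverse complement GTCTG, which holds the short Smad binding element.
Id2 promoter: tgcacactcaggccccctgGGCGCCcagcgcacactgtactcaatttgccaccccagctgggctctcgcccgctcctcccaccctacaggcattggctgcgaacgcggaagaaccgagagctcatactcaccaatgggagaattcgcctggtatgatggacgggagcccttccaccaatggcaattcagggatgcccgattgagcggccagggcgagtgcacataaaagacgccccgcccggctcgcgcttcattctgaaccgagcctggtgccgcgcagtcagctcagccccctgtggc
Id3 promoter: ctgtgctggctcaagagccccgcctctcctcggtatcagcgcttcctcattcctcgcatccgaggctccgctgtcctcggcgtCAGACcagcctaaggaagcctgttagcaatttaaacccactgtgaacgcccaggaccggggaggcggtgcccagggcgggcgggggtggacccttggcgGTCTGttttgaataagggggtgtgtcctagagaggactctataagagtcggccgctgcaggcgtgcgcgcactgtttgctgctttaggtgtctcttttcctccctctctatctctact
Id4 promoter: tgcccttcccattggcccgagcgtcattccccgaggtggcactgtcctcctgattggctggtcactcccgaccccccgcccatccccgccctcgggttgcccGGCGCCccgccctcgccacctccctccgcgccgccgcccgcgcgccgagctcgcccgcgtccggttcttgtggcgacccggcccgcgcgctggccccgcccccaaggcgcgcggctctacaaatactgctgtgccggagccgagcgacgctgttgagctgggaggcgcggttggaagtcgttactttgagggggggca
GGCGCC stands once in the Id2 window and once in that of Id4, and CAGAC or GTCTG stands at 2 places in that of Id3. The printed matches do not overlap each other. Both strands were searched. In 31 promoters found for 25 of the 36 members, GGCGCC occurred in 11 and CAGAC or GTCTG in 14. AGGTCA or its reverse complement TGACCT, the half-site read by thyroid hormone receptors, occurred in 1. Among the members without a promoter in this set were Id1 and Bmp1, the member called with T3 below, so neither was searched. Some members had several promoters in these counts, and 2 overlapping windows of Smad5 held the same GGCGCC. Of all 32851 promoters of the same table, 11.9% held GGCGCC, 49.6% CAGAC or GTCTG and 16.3% AGGTCA or TGACCT. A match describes the letters of a window and is not a measured binding site.

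Values are given in CPM, normalized by the authors with TMM (trimmed mean of M-values). The libraries held 5272092 to 10837895 reads, and in 6 of 6 mice more reads came from the culture with T3, by 1.03 to 1.67 times. One read was worth 0.0911 to 0.186 CPM. As a check of the labels, Hr, a classical T3 target, stood at 5.49 ± 1.23 CPM without T3 and at 46.5 ± 2.92 with it (SD, n = 6). Of 9 neuron and 10 astrocyte markers all were listed, whereas 4 of 6 microglia markers were listed with sums of only 2.64 to 8.16 CPM. Mouse 4 without T3 differed from the rest: 3 listed heart muscle markers summed to 1213 CPM there and to at most 6.89 in the other 11 libraries. The 10 listed markers of mural, meningeal and connective tissue cells summed to 529.9 CPM in it and to at most 191.8 elsewhere, so results are also given without mouse 4.

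Across the pathway 1 member changed with T3, and 32 did not pass the test. Of the 36 members 33 had enough reads to be tested, and Bmp1 rose, which is 3.03% of those tested. Among all 13663 genes tested, 5.52% were called at an adjusted p under 0.05 in limma, 3.37% higher and 2.14% lower, so the share of called members was near that of genes at large. No member fell in limma, where 2 members lay lower at an unadjusted p under 0.05, and none fell in edgeR or DESeq2, where 3 and 2 lay lower by the same measure. Those that lay higher by it, Bmp1 included, numbered 4 in limma, 4 in edgeR and 1 in DESeq2. The share of all genes by this measure was not counted. The median log2 change was 0.005 over the 33 members and 0.00308 over all genes, and 18 members had an estimate above 0 and 15 below. For 31 of the 33 the 95% interval of the change stayed within 1.5-fold in either direction. Without mouse 4 Bmp1 was again the 1 member called, beside 4.17% of 13653 genes, of which 2.49% were higher and 1.68% lower. The plot of changes by member shows each estimate with its interval.

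**Figure D1:**
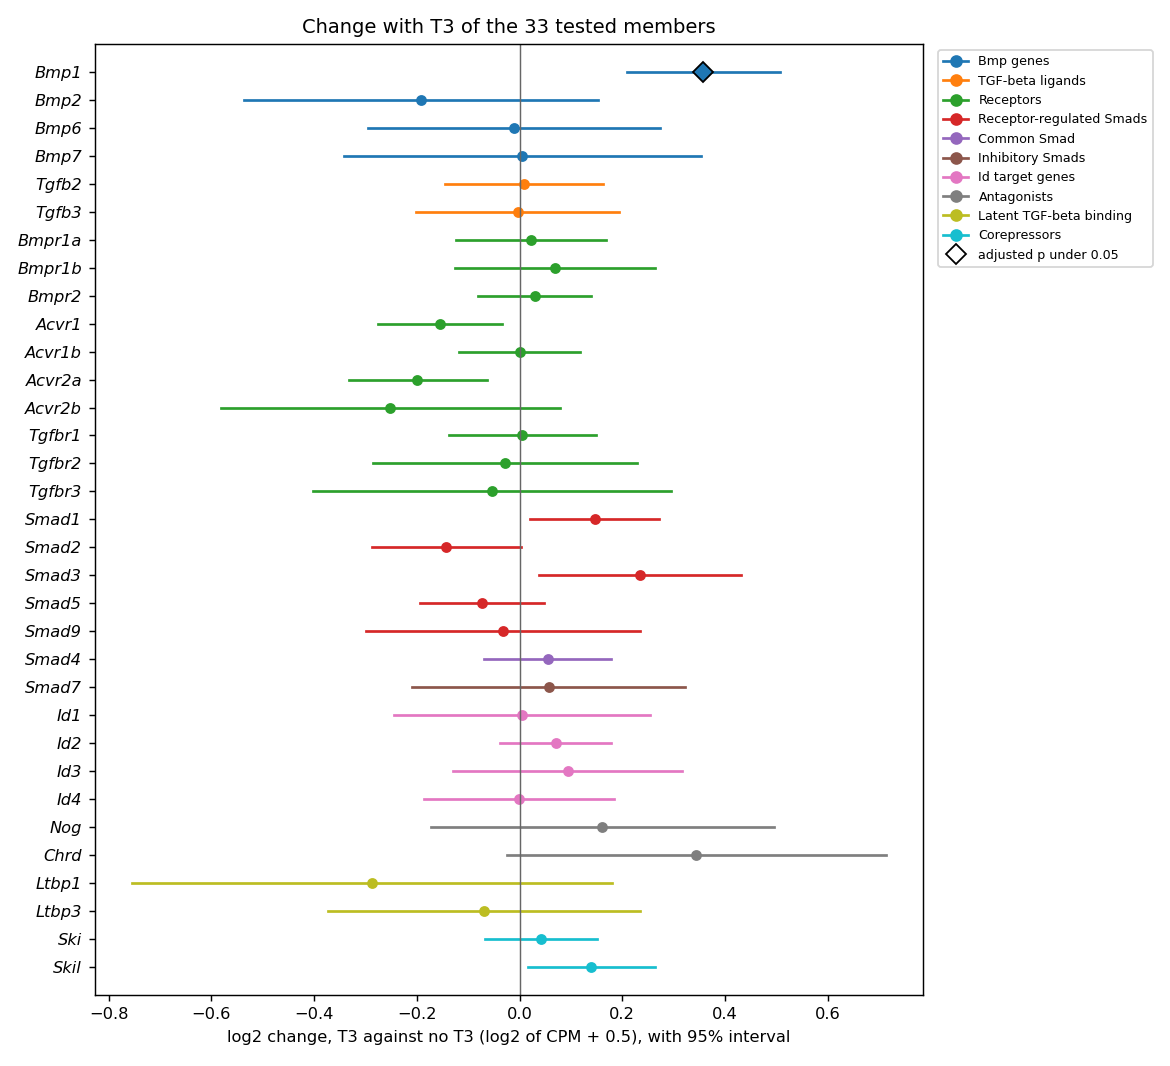
Log2 change with T3 (x axis, on log2 of CPM + 0.5) of the 33 tested members (y axis), as points with 95% intervals from the paired limma fit of 6 mice, coloured by role. Bmp1 at 0.36 is the 1 diamond, and the other members lie between -0.29 and 0.34.

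Bmp1 is named for its copurification with BMPs but encodes a secreted metalloprotease, which trims procollagens and cuts the BMP antagonist chordin. It stood at 26.0, 22.9, 26.97, 26.2, 20.1 and 22.2 CPM in mice 1 to 6 without T3 and at 33.5, 28.2, 33.6, 30.3, 29.5 and 30.0 CPM with T3. Every T3 culture lay above every culture without T3. Groups without overlap, in either direction, were seen in 1.68% of all tested genes and in no other member. The mean went from 24.1 ± 2.72 to 30.9 ± 2.20 CPM (SD, n = 6), a log2 change of 0.36 with a standard error of 0.07 and an adjusted p of 0.00344. On the linear scale this is 1.28-fold, with a 95% interval of 1.16 to 1.42. It was 0.39 with an adjusted p of 0.00625 without mouse 4. The gene (ENSMUSG00000022098) covers 70474558 to 70520234 of chromosome 14 on the minus strand of GRCm38, and none of its exons overlaps another gene.

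The BMP ligands proper did not pass the test. Bmp7, a ligand made by meninges and glia, ranged from 3.98 to 18.0 CPM around a median of 9.98 without T3 and from 6.82 to 13.9 around 9.33 with T3. Its highest value was that of mouse 4 without T3, and its change was 0.01, or 0.20 without mouse 4 (adjusted p = 0.993 and 0.476 in limma). Bmp6, a close relative of Bmp7, ranged from 5.37 to 14.7 CPM without T3 and from 4.35 to 18.3 with T3, and mouse 1 was highest in both. Txndc5, on the other strand, covers 5.7% of the Bmp6 exons, and these libraries do not mark strand. Bmp2, an inducer of bone that acts early in the dorsal midline of the brain, ranged from 1.89 to 4.45 CPM without T3 and from 1.43 to 3.07 with T3, with 11 to 31 reads in a library. Its change was -0.19 with a 95% interval of -0.54 to 0.15, which at this depth held a moderate fall as well as a small rise. Bmp4, the nearest relative of Bmp2, had 3 to 15 reads and was below the filter on low values.

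Among the TGF-beta isoforms, Tgfb2 and Tgfb3 were well measured and Tgfb1 was not. Tgfb2 stood at 59.6, 27.5, 25.4, 41.2, 40.1 and 28.0 CPM in mice 1 to 6 without T3 and at 59.2, 30.0, 27.2, 32.4, 38.6 and 33.03 with T3. Mouse 1 was highest in both groups and the groups overlapped throughout. The change was 0.01 with a 95% interval of -0.15 to 0.16 (adjusted p = 0.978). Tgfb3 ranged from 14.6 to 25.4 CPM without T3 and from 15.5 to 22.7 with T3, for a change of -0.004 (adjusted p = 0.992). Models on the other strand cover 12.4% of its exons. Tgfb1, the isoform most linked to immune cells and microglia, had 1 to 8 reads in a library and at most 1.11 CPM. For these ligands present at only a few reads the fit without a filter gave 0.25 for Bmp4 and 0.08 for Tgfb1, neither near the threshold (adjusted p = 0.667 and 0.924).

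None of the 10 receptors passed the test, 4 lying above 0 and 6 below. Those furthest from 0 relative to their error were Acvr2a and Acvr1. Acvr2a, a type II receptor for activins and BMPs, stood at 162.2, 173.0, 173.7, 170.7, 191.7 and 218.9 CPM in mice 1 to 6 without T3 and at 151.4, 175.3, 166.2, 157.6, 143.1 and 153.0 with T3. It was lower with T3 in 5 of 6 mice, by most in mice 5 and 6, and the groups overlapped. The log2 change was -0.20 with a standard error of 0.06, and the adjusted p was 0.0817. Leaving out mouse 2, the pair that went the other way, gave -0.24 and an adjusted p of 0.0427, whereas leaving out mouse 6 gave -0.14 and 0.312. Exons of Orc4 on the other strand overlap 7.8% of those of Acvr2a.

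Acvr1, a type I receptor for BMPs also called Alk2, stood at 59.9, 58.7, 60.9, 60.3, 54.5 and 64.8 CPM without T3 and at 48.7, 54.1, 52.6, 52.9, 52.8 and 61.5 with T3. It was lower in 6 of 6 mice, though by little in mouse 5, and the highest T3 value lay above most values without T3. The change was -0.16 with a standard error of 0.06 and an adjusted p of 0.143, so it missed the threshold. Acvr2b, the other type II activin receptor, went from 3.73 ± 0.952 to 3.01 ± 0.524 CPM (SD, n = 6) with 18 to 39 reads, and was higher with T3 in 2 of 6 mice. Its change of -0.25 had a wide 95% interval of -0.58 to 0.08.

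The other receptors lay nearer to 0. Bmpr2, the type II receptor for BMPs, stood at 87.0, 96.2, 100.1, 98.3, 93.1 and 104.6 CPM without T3 and at 95.3, 102.2, 93.0, 99.0, 97.5 and 103.8 with T3, with overlap throughout. Its change of 0.03 had an interval of 0.946 to 1.10 in folds. Acvr1b, the type I receptor for activin, went from 180.0 ± 10.5 to 181.0 ± 22.1 CPM (SD, n = 6), with an interval of 0.922 to 1.08 in folds. Tgfbr1, the type I receptor for TGF-beta, went from 45.8 ± 6.01 to 46.0 ± 6.45 CPM, and its type II partner Tgfbr2 from 8.44 ± 3.29 to 8.11 ± 2.55 (SD, n = 6). Tgfbr3, or betaglycan, a coreceptor that presents TGF-beta2, went from 4.48 ± 1.96 to 4.13 ± 1.16 CPM. The type I receptors for BMP, Bmpr1a at 100.2 ± 18.7 CPM and Bmpr1b at 16.7 ± 9.97 without T3, changed by 0.02 and 0.07 (adjusted p = 0.917 and 0.777) and ranged over 1.72-fold and 3.02-fold between mice.

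No Smad passed the test either, and the receptor-regulated Smads of both branches lay on both sides of 0. Smad3, which carries the TGF-beta and activin signal, stood at 22.8, 14.9, 18.6, 23.4, 16.9 and 17.6 CPM in mice 1 to 6 without T3 and at 26.8, 18.9, 18.7, 20.5, 23.8 and 26.0 with T3. It was higher in 5 of 6 mice, by next to nothing in mouse 3, and lower in mouse 4, and the groups overlapped. The change was 0.24 with a standard error of 0.09 and an adjusted p of 0.181, or 0.32 and 0.0681 without mouse 4. Smad2, its partner in the same branch, was higher with T3 in 2 of 6 mice. Smad2 went from 55.7 ± 8.60 to 49.97 ± 2.41 CPM (SD, n = 6), a change of -0.14 with an adjusted p of 0.296. The 2 Smads of the TGF-beta branch thus had estimates of opposite sign, and neither was called.

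In the BMP branch Smad1 ranged from 49.2 to 67.0 CPM around a median of 54.2 without T3 and from 55.4 to 75.5 around 60.8 with T3. It was higher in 5 of 6 mice, with mouse 6 highest in both groups, and its change was 0.15 (adjusted p = 0.192). Smad5 went from 83.7 ± 7.25 to 79.9 ± 11.3 CPM and Smad9, the scarcest of the branch, from 8.19 ± 1.60 to 7.92 ± 0.873 (SD, n = 6). Their changes were -0.07 and -0.03. Smad4, the partner of both branches, ranged from 61.3 to 80.9 CPM without T3 and from 70.1 to 73.5 with T3, with a change of 0.05 (adjusted p = 0.711). Its cultures with T3 lay within 1.05-fold of each other.

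The inhibitory Smads are themselves induced by the pathway and feed back on it. Smad7 went from 6.74 ± 1.39 to 6.93 ± 0.593 CPM (SD, n = 6), a change of 0.06 with an adjusted p of 0.877. Smad6, which acts mainly on the BMP branch, was below the filter, with 0 to 17 reads in a library. It stood at 3.15 CPM in mouse 4 without T3 and at no more than 1.039 in the other 11 libraries. The 0 reads in mouse 6 without T3 allow up to 3 reads, or 0.385 CPM, a limit that covers counting error only.

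None of the Id genes, the target genes among the members, passed the test. Id2 stood at 144.4, 137.0, 140.3, 129.7, 132.9 and 144.8 CPM in mice 1 to 6 without T3 and at 155.0, 144.7, 165.8, 136.9, 133.7 and 136.8 with T3. It was higher in 5 of 6 mice by small steps and the groups overlapped. The change was 0.07 with an interval of 0.974 to 1.13 in folds, and the adjusted p was 0.546. Id3 stood at 36.1, 15.5, 13.6, 17.6, 18.5 and 6.93 CPM without T3 and at 34.0, 15.2, 14.1, 14.3, 21.1 and 11.8 with T3. Mouse 1 was highest and mouse 6 lowest in both groups. The log2 change of 0.09 had a 95% interval of -0.13 to 0.32 (adjusted p = 0.726).

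Id1 ranged from 3.72 to 10.6 CPM without T3 and from 4.35 to 11.3 with T3, and Id4, which also restrains the maturation of oligodendrocytes, from 13.2 to 30.7 and from 12.3 to 38.5. Mouse 1 had the highest value of Id1 and of Id4 in both groups. Their changes were 0.005 and -0.001 (adjusted p = 0.992 and 0.998), with intervals of 0.844 to 1.19 and 0.879 to 1.14 in folds. Of the 4 Id genes 3 lay above 0 and 1 below, over a range of -0.001 to 0.094. These 6 pairs do not exclude changes within those intervals, which are not limits of detection.

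Both secreted BMP antagonists among the members were scarce. Chrd encodes chordin, the antagonist that the protease of Bmp1 cuts. It ranged from 1.27 to 2.05 CPM around a median of 1.58 without T3 and from 1.95 to 2.47 around 2.25 with T3, with 8 to 25 reads in a library. It was higher in 5 of 6 mice and the groups overlapped only narrowly, but the change of 0.34 had an interval of 0.983 to 1.64 in folds and an adjusted p of 0.331. The scale of log2(CPM + 0.5) understates changes of genes this low. Nog, which encodes noggin, went from 3.72 ± 1.22 to 4.06 ± 0.580 CPM (SD, n = 6), a change of 0.16 (adjusted p = 0.678).

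Ltbp1, which tethers latent TGF-beta to the matrix, stood at 3.50, 3.08, 3.25, 20.4, 4.05 and 5.14 CPM without T3 and at 4.42, 3.32, 4.26, 6.18, 3.37 and 3.26 with T3. Mouse 4 without T3 lay far above the rest, in the library with the heart and connective tissue markers, whose part in the value was not tested. The change was -0.29 with all mice and -0.02 without mouse 4 (adjusted p = 0.570 and 0.980). Ltbp3 ranged from 4.80 to 17.9 CPM without T3 and from 5.71 to 14.8 with T3, and its change was -0.07, or 0.09 without mouse 4. The corepressors Ski and Skil, which hold Smad complexes inactive on DNA, were abundant. Ski went from 203.9 ± 14.3 to 210.0 ± 16.9 CPM and Skil from 100.4 ± 11.5 to 110.3 ± 7.38 (SD, n = 6). Skil was higher in 4 of 6 mice, and its change of 0.14 had an adjusted p of 0.212.

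Levels of different genes were set side by side only after division by the length of their exons, as CPM per kb. Without T3 the highest member was Id2 at 56.7 ± 2.52, followed by Acvr1b at 40.8 ± 2.37, Ski at 36.7 ± 2.56 and Acvr2a at 32.0 ± 3.63 CPM per kb (SD, n = 6). Acvr1b and Acvr2a were thus the highest of the receptor genes, above Bmpr1a at 15.8 ± 2.95 and Acvr1 at 12.4 ± 0.692. Tgfbr1 at 7.0 ± 0.919 and Bmpr2 at 5.37 ± 0.338 came next, and Bmpr1b at 2.81 ± 1.67 lay lower. Tgfbr2 at 1.03 ± 0.402, Acvr2b at 0.950 ± 0.242 and Tgfbr3 at 0.685 ± 0.300 were the lowest receptors and did not differ beyond their spread.

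Of the ligands, Tgfb2 at 6.38 ± 2.24 and Tgfb3 at 5.49 ± 1.21 CPM per kb were highest and lay within each other's spread (SD, n = 6). Bmp7 at 2.58 ± 1.16 and Bmp6 at 2.38 ± 0.821 followed, and Bmp2 at 0.858 ± 0.261, Bmp4 at 0.367 ± 0.179 and Tgfb1 at 0.113 ± 0.0896 were the lowest. The Smads ran from Smad4 at 18.7 ± 1.91 through Smad5 at 11.3 ± 0.977, Smad1 at 8.90 ± 0.990, Smad2 at 6.34 ± 0.979 and Smad3 at 3.43 ± 0.606 down to Smad9 at 1.53 ± 0.298, Smad7 at 1.49 ± 0.308 and, lowest, Smad6 at 0.236 ± 0.373. The other Id genes lay below Id2, with Id3 at 10.1 ± 5.44, Id1 at 6.36 ± 2.12 and Id4 at 4.88 ± 1.70. The annotated exons of a gene may be longer than the transcripts these cells make, so this order is approximate. The plot of levels per length shows the whole set.

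**Figure D2:**
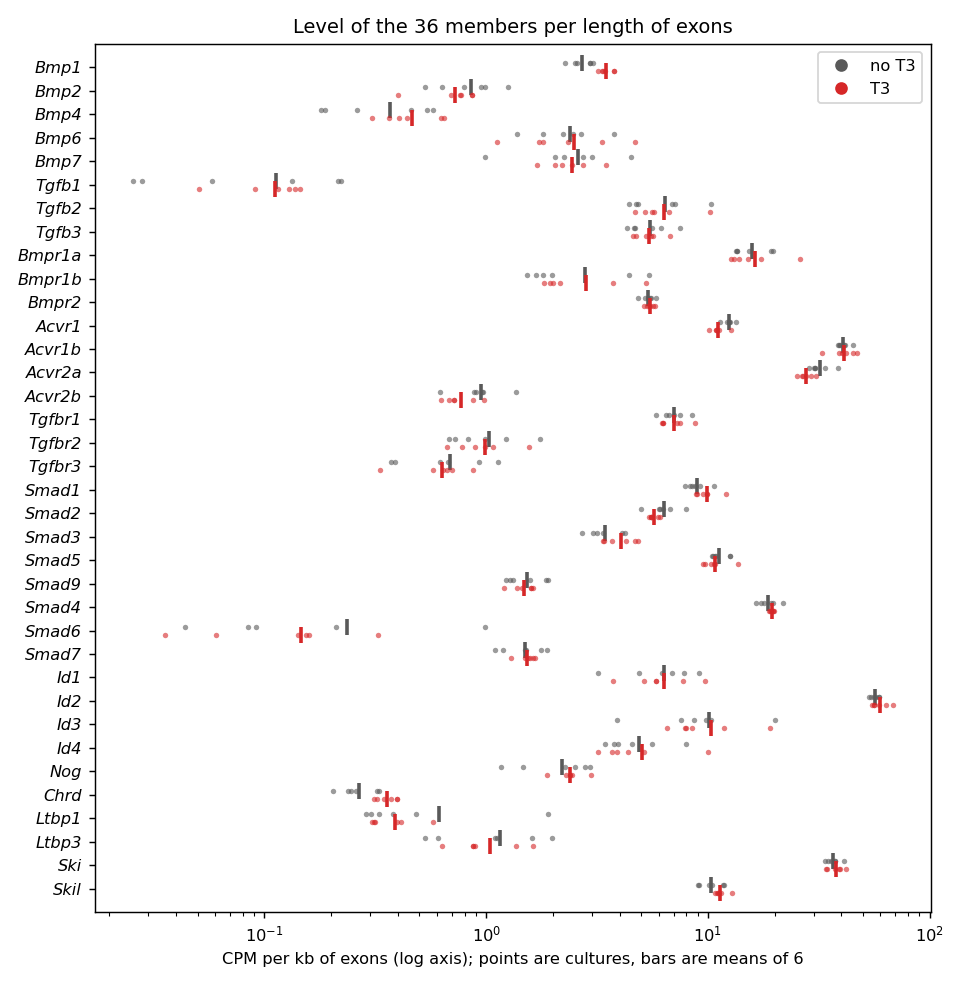
Level of each of the 36 members in CPM per kb of exons (log x axis), with 1 point for each culture and a bar for the mean of 6 cultures, grey without T3 and red with T3. The level without T3 runs from 0.113 for Tgfb1 to 56.7 for Id2, and the 1 culture with 0 reads of Smad6 has no point on the log axis.

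A number of members varied widely between mice. Taking the mean of both cultures of a mouse, 12 of the 33 tested members ranged over more than 2-fold between the highest and the lowest mouse, or 36.4%, against 10.8% of all tested genes. These were Bmp2, Bmp6, Bmp7, Tgfb2, Bmpr1b, Tgfbr2, Tgfbr3, Id1, Id3, Id4, Ltbp1 and Ltbp3, at mean levels of 2.81 to 36.9 CPM. The list was read off the data and carries no test. The 10.8% covers genes of every level and was not matched to the levels of these members. The part of counting error in the ranges was not tested. Of the 12, 9 were highest in mouse 1 and 3 in mouse 4. Of all genes with such a range, 52.2% were highest in mouse 1 and 20.3% in mouse 4. The 3 members highest in mouse 4 were Bmp2, Bmp7 and Ltbp1, each with its highest value in that mouse without T3. That library is the one with the heart and connective tissue markers. Of the 3, only Ltbp1 was also highest in mouse 4 with T3, where its cultures lay within 1.89-fold of each other.

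Bmpr1b, the BMP receptor with the clearest pattern, stood at 32.3, 11.9, 10.7, 10.0, 26.3 and 9.12 CPM in mice 1 to 6 without T3 and at 31.3, 12.8, 10.8, 11.6, 22.3 and 12.0 with T3. Mice 1 and 5 were high in both cultures and the others low, a range of 3.02-fold between mice. Id3, with its values above, ranged over 3.75-fold and was also highest in mice 1 and 5. Id2 at 1.15-fold and Bmpr2 at 1.14-fold were nearly the same in all mice.

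The astrocyte markers also varied between mice. Their level is given beside that of the members. They were not the only list that was high in mouse 1. With T3 the endothelium and the mural, meningeal and connective tissue sums were highest in mouse 1, at 30.65 and 186.0 CPM. Without T3 these 2 sums were highest in mouse 4 and next in mouse 1, at 23.8 and 191.8 CPM. The neuron sum was lowest in mouse 1 in both groups. The sum of the 10 astrocyte markers was 2827, 1556, 1465, 1365, 2278 and 849.8 CPM in mice 1 to 6 without T3, highest in mice 1 and 5 and lowest in mouse 6. With T3 it ran from 1267 to 3305 CPM, was higher in 6 of 6 mice, and 4 of the 9 tested markers rose, among them the glutamate transporter Slc1a2 by 0.43 on the log2 scale (adjusted p = 4.12e-05). Without mouse 4, Aqp4 and Aldh1l1 lost the call (adjusted p = 0.0684 and 0.0615), Gja1 gained it (0.0184), and Gfap and Slc1a2 were called again. Of the 9 oligodendrocyte lineage markers Olig1, Olig2 and Gpr17 rose, Olig2 not without mouse 4 (0.17). Of the 9 neuron markers Rbfox3 rose, but not without mouse 4 (0.0544), while the neuron sum was lower with T3 in 5 of 6 mice, at 7228 to 9107 CPM without T3 and 6745 to 8204 with T3. Of the 10 mural, meningeal and connective tissue markers Dcn fell, by 0.47 on the log2 scale (adjusted p = 0.00806, and 0.0492 without mouse 4). None of the 5 cycling progenitor markers was called with all mice. Mki67, lower with T3 in 6 of 6 mice, was called without mouse 4, at -0.53 (adjusted p = 0.0181, against 0.257 with all mice). Top2a and Ccnb1 also had estimates below 0, and Pax6 and Nes above 0. The part of these cells in the differences of the members between mice, and in the changes with T3, was not tested. The plot by mouse puts Bmpr1b and the Id genes beside the marker sums.

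**Figure D3:**
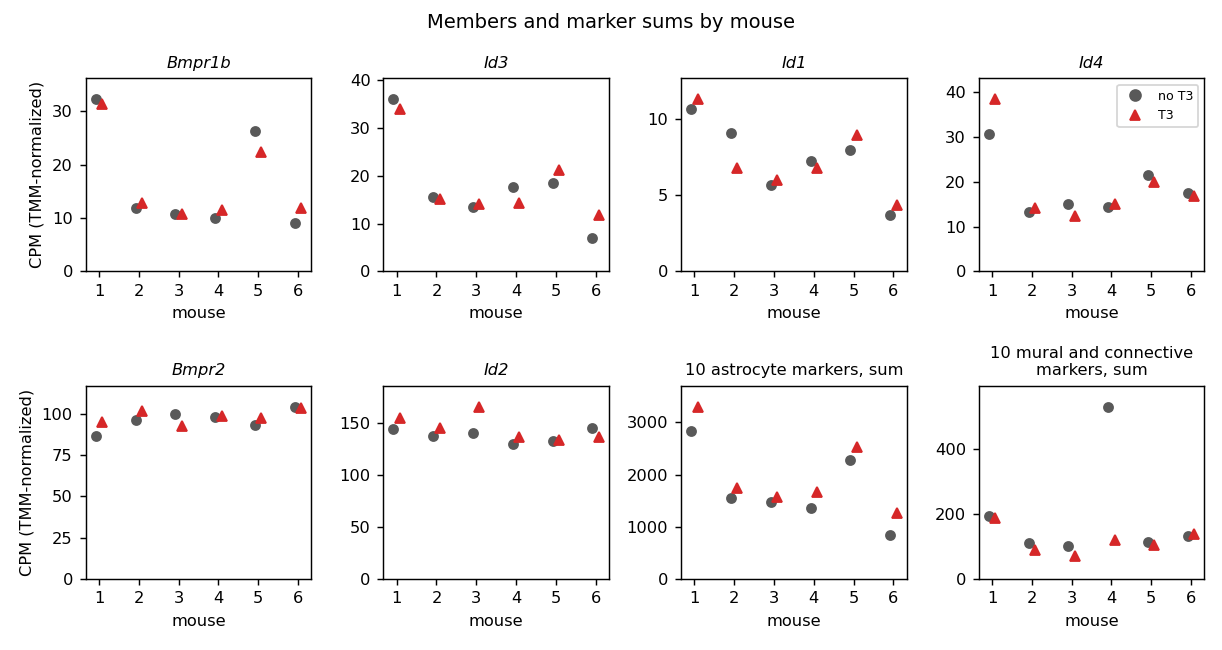
CPM (y axes) in mice 1 to 6 (x axes) of Bmpr1b, Id3, Id1, Id4, Bmpr2 and Id2, and the summed CPM of 10 astrocyte markers and of 10 mural and connective tissue markers, with circles for cultures without T3 and triangles for cultures with T3. Mouse 1 is highest in Bmpr1b, Id3, Id1, Id4 and the astrocyte sum, while Bmpr2 and Id2 are nearly level, and mouse 4 without T3 stands at 529.9 in the last panel.

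A further list of 92 pathway genes, none of them members, held 69 genes of the table and 64 tested ones. Of these 6 rose and 1 fell, which is 10.9% of the 64 against the 5.52% of all genes given above. The list was written with results of these data known, so its share is a description. Its median log2 change was -0.005, with 30 genes above 0 and 34 below. By role, 2 of 7 tested ligands, 1 of 4 receptors and coreceptors, 2 of 13 genes of latent TGF-beta storage and activation and 1 of 11 targets rose, and 1 of 10 antagonists fell. None of the 19 intracellular regulators, such as the Smurf ubiquitin ligases, was called in limma, edgeR or DESeq2, and 1 of them had an unadjusted p under 0.05 in limma and in edgeR and 0 in DESeq2.

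The largest rises were those of a pair of related ligands. Bmp3, a divergent family member known to counter other BMPs, stood at 15.5, 26.8, 22.7, 16.1, 15.7 and 19.7 CPM in mice 1 to 6 without T3 and at 25.3, 45.0, 49.1, 39.95, 33.5 and 32.4 with T3. Each mouse was higher with T3, and only the T3 value of mouse 1 lay below the highest value without T3. The log2 change was 0.93 with a standard error of 0.09, or 1.91-fold, and an adjusted p of 4.49e-07. Gdf10, its closest relative, stood at 10.6, 12.6, 10.6, 5.75, 15.7 and 9.50 CPM without T3 and at 18.6, 18.2, 23.1, 20.4, 25.1 and 19.7 with T3. The groups did not overlap, and the change was 0.97 with a standard error of 0.13, or 1.95-fold (adjusted p = 8.57e-05). Both were also called without mouse 4, at 0.86 and 0.81.

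Rgma, a coreceptor for BMPs that also repels axons, went from 108.8 ± 10.7 to 151.1 ± 16.5 CPM (SD, n = 6) with no overlap between the groups, a change of 0.47 and an adjusted p of 0.000314. Crim1, a membrane protein with cysteine-rich repeats that binds BMPs, was the 1 gene that fell. It ranged from 129.1 to 146.1 CPM without T3 and from 97.6 to 119.0 with T3, lower in 6 of 6 mice and without overlap. The change was -0.27 with a standard error of 0.05 and an adjusted p of 0.00232. The paired values of these genes are plotted beside those of 4 members.

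**Figure D4:**
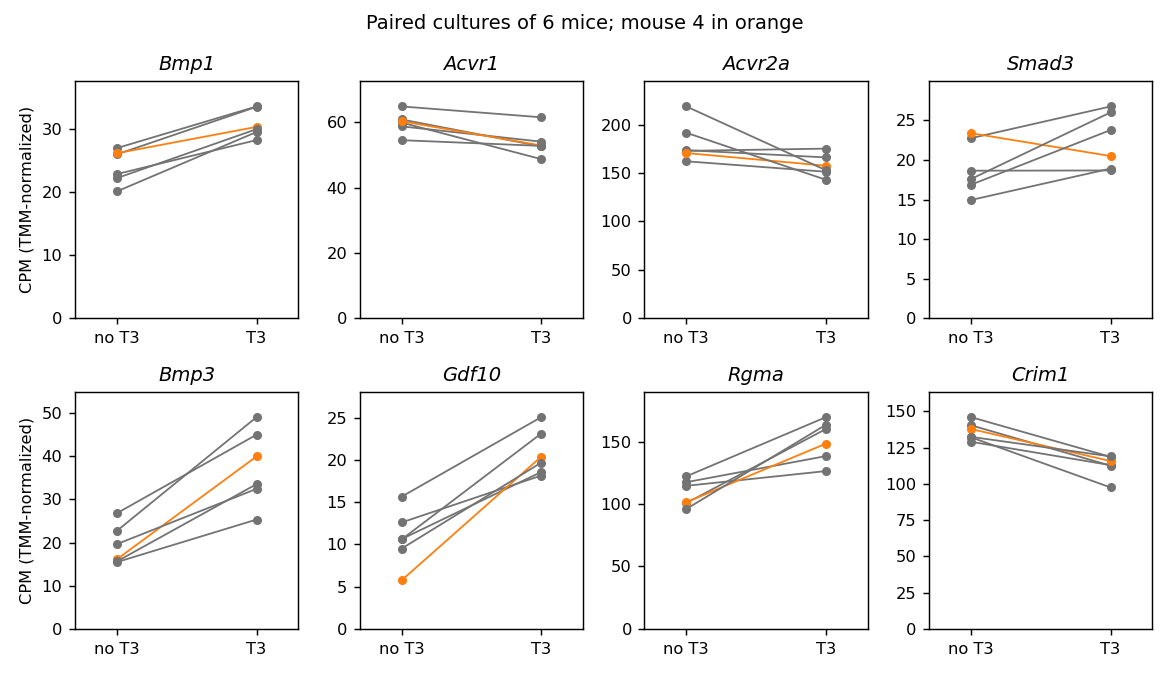
CPM (y axes, from 0) of 4 members (Bmp1, Acvr1, Acvr2a, Smad3) and 4 other pathway genes (Bmp3, Gdf10, Rgma, Crim1) in the 6 pairs of cultures, with a line for each mouse and mouse 4 in orange. All 6 lines go up for Bmp1, Bmp3, Gdf10 and Rgma and down for Acvr1 and Crim1, and 1 line of Acvr2a and 1 of Smad3 go against the others.

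The other rises were smaller or less firm. Htra1, a secreted serine protease that acts on matrix and on TGF-beta family ligands, ranged from 9.63 to 32.7 CPM without T3 and from 17.7 to 39.6 with T3. The groups overlapped widely while each mouse was higher with T3, and the change was 0.44 (adjusted p = 0.00286). Hey1, a transcriptional repressor best known as a Notch target that BMPs also induce, went from 25.7 ± 6.32 to 32.2 ± 4.22 CPM (SD, n = 6), a change of 0.35 (adjusted p = 0.00703). In a fit that ignored the pairs (no block for the mouse) neither passed, with adjusted p of 0.707 and 0.356, while Bmp3, Gdf10, Rgma and Crim1 were called with and without it. Hey1 also missed the threshold in limma without trend and robust estimation (0.0525).

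Itgav, the alpha-V subunit of integrins that release TGF-beta from its latent form, went from 65.9 ± 11.5 to 76.8 ± 16.8 CPM (SD, n = 6), higher in 6 of 6 mice. The change was 0.21 with an adjusted p of 0.0381. It lost the call without mouse 1, 2, 3, 4 or 6, with adjusted p of 0.0955, 0.103, 0.135, 0.0570 and 0.0835, without the mouse as a block (0.670), in limma without trend and robust estimation (0.143) and in DESeq2 (0.106). Without mouse 4 Fbn2, a fibrillin of matrix fibres, was called lower at -0.43 (adjusted p = 0.0407). With all mice Fbn2 was at -0.66 and 0.168, and its value in mouse 4 without T3 was 51.0 CPM against at most 21.1 in the other cultures.

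Bmp1 lies in a stretch of chromosome 14 where neighbouring genes rose as well, a pattern chosen for description after its values were seen. With a gap of at most 100 kb between gene and gene, 8 other genes were tested and 3 were called, all higher. Lgi3, a secreted protein of the Lgi family, starts 10.5 kb from the start of Bmp1 on the opposite strand and went from 1.91 ± 0.753 to 4.36 ± 0.892 CPM (SD, n = 6) with 6 to 52 reads, a log2 change of 1.06 (adjusted p = 0.000774). Hr, the transcriptional corepressor hairless, starts 32.0 kb away and changed by 3.00 (adjusted p = 3.47e-14). Nudt18, a nucleotide hydrolase, starts 57.4 kb away and changed by 0.34 (adjusted p = 0.0377). Its call was lost without mouse 3, 4, 5 or 6, with adjusted p of 0.183, 0.0957, 0.101 and 0.131, in DESeq2 (0.129), in limma without trend and robust estimation (0.148) and without the block (0.0926).

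Of the other neighbours, Reep4, between Lgi3 and Hr, changed by 0.74 with an adjusted p of 0.0565, and by 0.92 with 0.0229 without mouse 4. Fam160b2 changed by 0.25 with an adjusted p of 0.106, and by 0.30 with 0.0493 without mouse 1. Polr3d, Phyhip and Dmtn lay at 0.01, 0.08 and -0.04. Of 752 called genes with a position, 4 had 3 or more called genes within 100 kb, and these were Bmp1, Lgi3, Hr and Nudt18 themselves. That count of 4 rests on the call of Nudt18, and without it Bmp1 has 2 called neighbours, unless Reep4 is called in its place as it was without mouse 4. Over all 13542 tested genes with a position, 24 genes or 0.177% had 3 or more, and these 24 include Bmp1, Lgi3, Hr and Nudt18. Of the 33 tested members 5 had at least 1 called neighbour, beside 12.4% of all tested genes. The plot of distance from Bmp1 shows the stretch.

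**Figure D5:**
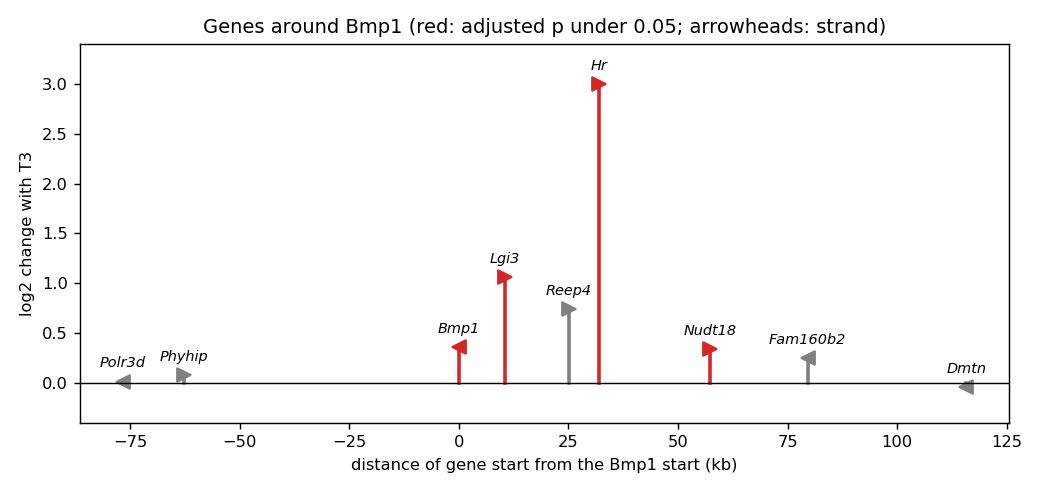
Log2 change with T3 (y axis) of Bmp1 and the 8 tested genes whose bodies lie within 100 kb of it, against the distance of their starts from that of Bmp1 in kb (x axis), red where the adjusted p is under 0.05 and with arrowheads for the strand. Bmp1, Lgi3, Hr and Nudt18 are red at 0.36, 1.06, 3.00 and 0.34, with Reep4 in grey at 0.74 between Lgi3 and Hr.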

How the data were processed

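Gene expression was measured in 12 libraries (6 without and 6 with T3) made with the Illumina TruSeq RNA kit of version 2, which does not mark strand, and read as single reads of 75 bases, per the labels' protocols. The submitters' processing notes name CASAVA, FastQC, Bowtie, TopHat, HTSeq, edgeR and GRCm38, without versions. Per the file headers, the deposited signal is reads per gene after TMM normalization, read here as CPM. Whole reads were recovered from the steps of these values, and with a tolerance of 0.01 reads 100% came out whole. The limit that a count of 0 allows, 3 reads, equals 0.273 to 0.557 CPM.

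Changes were tested on log2(CPM + 0.5) by limma 3.58.1 (R 4.3.3), blocked by mouse, with trend and robust variances, on all genes kept by filterByExpr of edgeR 4.0.16. P-values were two-sided, adjusted by the Benjamini-Hochberg method over 13663 genes, with a threshold of 0.05, and every adjusted p is from this fit unless another tool is named. The test was tried on simulated counts. Alternatives were 2 scalings, 2 pseudocounts, 2 filters, no block, plain limma, limma-voom, edgeR, DESeq2 1.42.0 and leaving out each mouse.

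The mouse pairs the cultures, since the series' design says that the cortices of 1 fetus gave both. Deviations from the group means correlated between 0.237 and 0.638 within the 6 pairs, and each culture without T3 matched its own partner best. Between different mice the correlations had a median of -0.106 and a maximum of 0.348. The members, the further lists and the markers were chosen with earlier results of these data known. All members and every called gene of the further list are named, and genes near Bmp1 were added after their values were seen. Of the 14801 identifiers, 14648 had a symbol. Coordinates, exon lengths and overlaps are from GENCODE on GRCm38, and promoters from RefSeq. Ctgf was found under its current symbol Ccn2.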

Additional observations from a re-analysis of the deposited data

Results flagged for a closer look

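In 11 of 86 groups of 6 cultures, 1 culture stood apart from the other 5 by Dixon's test at the 95% level. Chance does so in about 1 of 20 groups of independent, normally distributed values. The groups here share cultures and hold untransformed CPM, so the count of 11 is a description. In the T3 culture of mouse 1, Tgfb2 at 59.2 CPM (next 38.6), Bmpr1a at 165 (next 110), Smad5 at 102 (next 79.9), Id4 at 38.5 (next 19.9) and Itgav at 110 (next 76.8) were the highest of their group. Bmp2 at 1.43 (next 2.46) was the lowest of its group in the same culture. In mouse 4 without T3, Ltbp1 at 20.4 (next 5.14) and Smad6 at 3.15 (next 0.673) were the highest. The remaining ones were Smad1 at 75.5 in mouse 6 with T3 (next 62.0), Skil at 125 in mouse 2 with T3 (next 111) and Crim1, the lowest at 97.6 in mouse 5 with T3 (next 113). So 6 of the 11 fell in the T3 culture of mouse 1. Another 2 fell in the culture of mouse 4 with the heart and connective tissue markers. The T3 culture of mouse 1 also had the highest astrocyte marker sum, 3305 CPM. Among the T3 cultures it had the highest endothelium and the highest mural, meningeal and connective tissue sums as well. The part of these cells was not tested.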

How the results depend on the processing

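Bmp1 was called higher in all 17 alternatives, with log2 changes of 0.32 to 0.39 and adjusted p of 0.00282 to 0.0400. Leaving out each mouse gave 459 to 854 called genes, lowest without mouse 3, and 1 to 2 called members, 2 without mouse 2 where Acvr2a joined. Without the mouse as a replicate block 178 genes, 1 member and 4 of the other pathway genes were called, and without both mouse 4 and the block 0 members in limma (3 at an unadjusted p under 0.05), against 1 in edgeR, limma-voom and DESeq2 with the block. Among the members, the called genes of the further list and the genes near Bmp1, fitting without the block lost the calls of Htra1, Hey1, Itgav and Nudt18 and changed no other, and the markers were not refitted this way. Limma without trend and robust estimation called 337 genes. Of 561 values of members under an alternative 514 kept direction and side of the threshold, 1 passed it and 46 changed sign, all of these of uncalled members near 0. Leaving out single mice moved the log2 change of Bmp6 from -0.087 to 0.11, Bmp7 from -0.14 to 0.20, Tgfb2 from -0.037 to 0.078, Tgfb3 from -0.058 to 0.080, Bmpr1a from -0.053 to 0.079, Acvr1b from -0.040 to 0.051, Tgfbr1 from -0.034 to 0.059, Tgfbr2 from -0.13 to 0.051, Tgfbr3 from -0.19 to 0.11, Smad9 from -0.099 to 0.084, Smad7 from -0.016 to 0.12, Id1 from -0.034 to 0.085, Id3 from -0.031 to 0.17, Id4 from -0.065 to 0.057, Ltbp3 from -0.18 to 0.086, Polr3d from -0.020 to 0.044 and Dmtn from -0.073 to 0.017. Other settings turned the sign of Bmp6 to 0.077 with limma-voom, 0.040 with edgeR, 0.011 with DESeq2; Bmp7 to -0.00037 with a pseudocount of 1, -0.051 with limma-voom, -0.033 with edgeR, -0.012 with DESeq2; Acvr1b to 0.0037 with no TMM factor; Id4 to 0.0030 with no TMM factor, 6.2e-05 with a pseudocount of 1, 0.020 with limma-voom, 0.0092 with edgeR, 0.00046 with DESeq2. The cause of these changes was not tested. Among the 7 called genes of the further list 108 of 119 values kept their call and 11 lost it. The scalings shifted the median of all genes by 0.0038 and -0.005. Depth limits Bmp2, Bmp4, Tgfb1, Smad6, Chrd, Nog, Tgfbr3 and Acvr2b, with at most 55 reads in a library.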
